A study of Mus musculus with 6 samples.

Results

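The cytosolic ribosomal protein genes encode the proteins of the cytoplasmic ribosome. They were taken here as every protein-coding gene whose GENCODE symbol is Rpl or Rps followed by a number (with an optional a, l or x), by p0, p1 or p2, or by a. The rule found 80 genes among the 54232 genes of the deposited count table, 49 of the large subunit (Rpl) and 31 of the small subunit (Rps and Rpsa), spread over 19 chromosomes. A further 3 rows carried such a symbol but a pseudogene biotype (Rps4l, Rpl32l and Rpl6l) and were not members. That Rpl29 rose most among the members was known when they were chosen.

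A ribosome reads mRNA with its small subunit and joins amino acids with its large subunit, and each ribosomal protein is present in one or a few copies per particle. The mRNAs of these genes begin with a run of C and T, the 5′ terminal oligopyrimidine (TOP) tract, through which growth signals adjust the translation of all of them together. Mammalian genomes also hold very many processed pseudogenes of ribosomal protein mRNAs, which are intronless copies with nearly the same sequence. Some copies became working genes, and in the testis the retrogenes Rpl10l and Rpl39l are known to be expressed during meiosis, when the X-linked parents Rpl10 and Rpl39 are silenced.

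The RNA came from whole testes of B6D2F1 mice at postnatal day 12, with 3 control libraries (label Dis3l2 WT) and 3 KO-labelled libraries (label Dis3l2 KO). Each group is described as 3 biological replicates, and p-values measure the spread between these libraries. Per the study, the KO-labelled group carried Stra8-Cre, which acts in spermatogonia from soon after birth, with 1 floxed and 1 null Dis3l2 allele. Littermates served as the control. Somatic cells were not the target of Cre, but by this genotype they also carried 1 null allele. Dis3l2, which encodes a cytoplasmic exoribonuclease, had control CPM of 25.8, 23.5 and 23.0 against KO-labelled CPM of 31.6, 25.4 and 27.5 (log2 fold change 0.22, standard error 0.11, edgeR adjusted p = 0.136, 95% interval -0.01 to 0.46), and with library factors from somatic cell markers the value was -0.35 (edgeR adjusted p = 0.0163). Its homolog Dis3, which encodes an exosome ribonuclease and which the design sentence of the series names, had control CPM of 133, 148 and 137 against KO-labelled CPM of 59.1, 64.3 and 68.1 (log2 fold change -1.13, standard error 0.08, edgeR adjusted p = 2.71e-07). Counts cover the whole gene in all cells of the testis, so they do not measure the deleted part in germ cells alone. The libraries are called KO-labelled, after their label. CPM are a gene's counts per 1000000 counted reads of its library, scaled between libraries with TMM factors.

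The libraries held 33325483 to 44956193 counted reads, and every member had at least 10 reads in every library, with a median of 4044 reads. All 80 members passed the filter on low counts, among 20327 genes tested. Cell type markers moved with the labels. Summed over 12 spermatocyte markers the level was 1923 to 2432 CPM in control and 522 to 662 CPM in KO-labelled testes, and all 12 were called lower. Over 14 Sertoli cell markers it was 8701 to 9098 CPM in control and 13754 to 14785 CPM in KO-labelled testes, and 13 were called higher. Other germ cell lists were lower (6 of 7 general germ cell markers and 4 of 6 markers of differentiating spermatogonia), while 3 of 8 markers of undifferentiated spermatogonia were called higher, and 3 lower with somatic marker factors. Of the other somatic lists, 5 of 7 Leydig, 5 of 6 macrophage and 2 of 6 endothelial markers were called higher and 3 of 6 peritubular myoid markers lower. Red blood cell markers summed to 9.85 to 17.6 CPM and spermatid markers to 0.282 to 0.681 CPM over the 6 libraries, with Tnp2 at 0 reads in all of them. The part of these shifts in the results on ribosomal protein genes was not tested, and in RNA of whole testes fewer cells of a type and less RNA per cell cannot be told apart.

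About 1 in 4 ribosomal protein mRNAs were called lower in the KO-labelled testes, a few were called higher, and most were not called. The members took 1.18%, 1.15% and 1.21% of all control counts against 1.06%, 0.985% and 0.935% of all KO-labelled counts, so the groups did not overlap. Of the 80 members, 21 were called lower and 5 higher at an adjusted p under 0.05 (edgeR quasi-likelihood test with Benjamini-Hochberg adjustment), and 54 were not called. Over all genes tested, 16.5% were called lower and 16.2% higher. The share of members called lower was thus above that background and the share called higher below it. That background includes many genes with fewer reads than the members, and it was not matched for level. With protein-coding genes only, 25 members were called lower and 5 higher, beside 3205 and 2880 of 15588 genes. The median log2 fold change was -0.16 over the members and -0.02 over all genes tested, and 60 members had a value below 0. Falls were small: among the 21 called lower, log2 fold changes ran from -1.39 to -0.24 with a median of -0.40. The libraries of both groups did not overlap for 22 members on the lower side and 6 on the higher side, where 23.8% and 21.7% of all genes tested did not overlap. KO-labelled library 3 had the lowest value of the 6 libraries for 41 members. Without that library 20 members were called lower and 7 higher. The median of the members then moved to -0.08, beside -0.04 over all genes tested, so the gap between these medians was smaller.

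These counts depend on the scaling. With library factors taken from the somatic cell markers, the median of all genes tested moved from -0.02 to -0.60 and that of the members to -0.74. Then 73 members were called lower and 1 higher, beside 57.8% and 1.18% of all genes. The median of the members lay 0.14 below that of all genes under both scalings. Other library factors shift all genes by nearly the same amount, so this gap could hardly change. Without the filter on low counts the median of all genes was -0.33 and that of the members -0.13, so which of the medians is lower depends on that filter. DESeq2, fitted to 42379 genes, called 18 members lower and 5 higher, beside 7.51% and 7.99% of its genes. Those genes include ones with low counts that the edgeR filter left out, so these shares are not comparable with the edgeR shares.

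**Figure D1:**
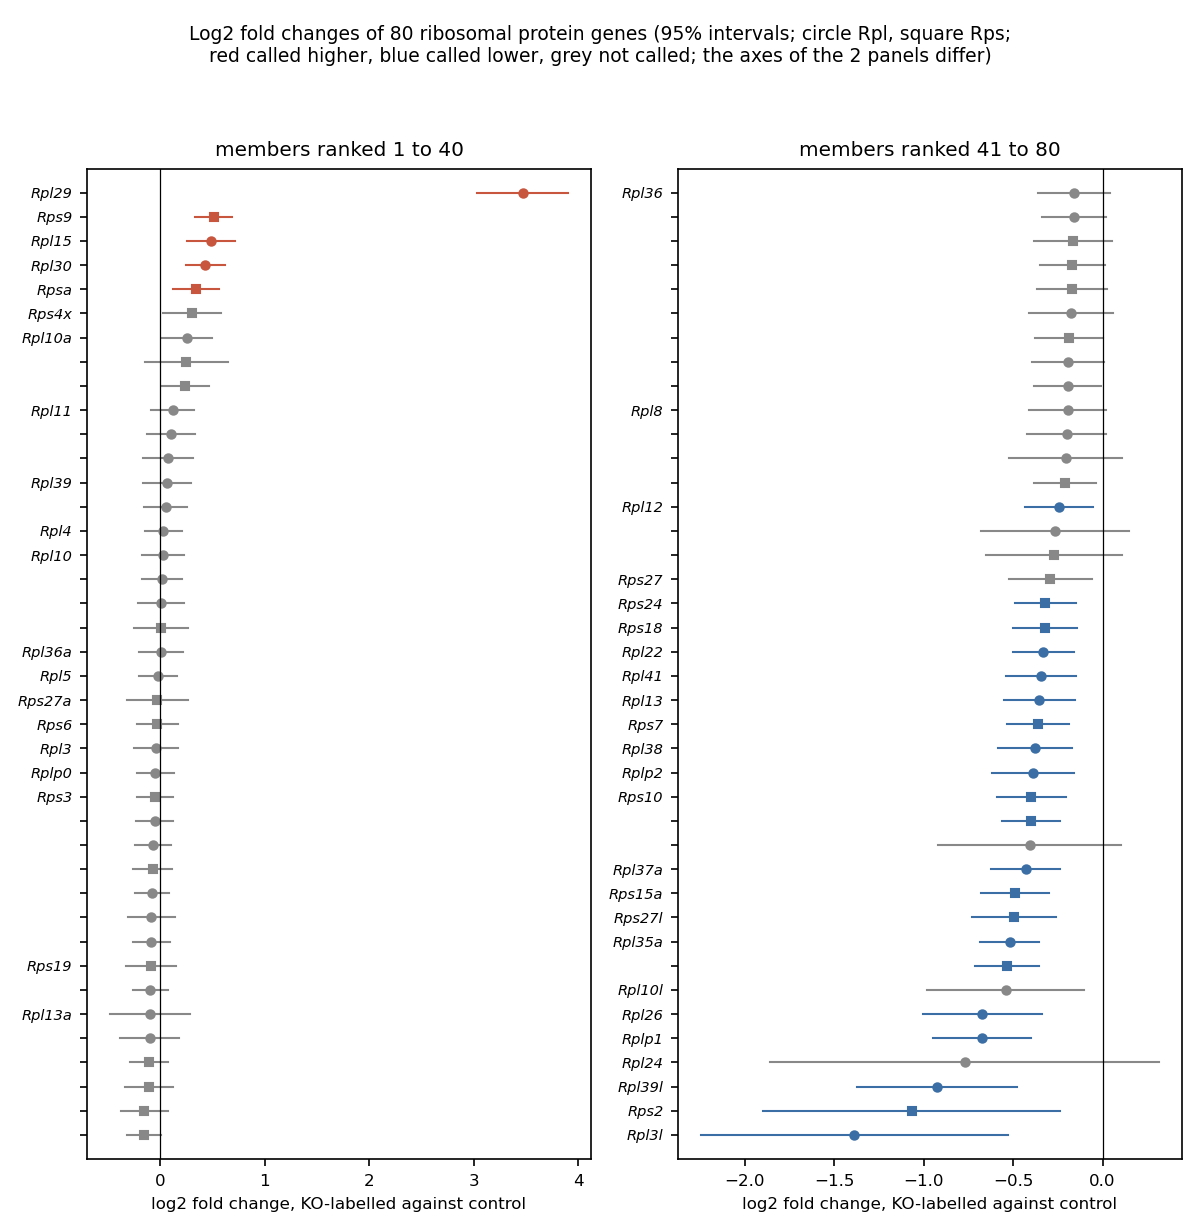
Log2 fold change of each of the 80 members, KO-labelled against control, with its 95% interval from the edgeR fit, ordered from the largest to the smallest in 2 panels with different axes, with the genes named in the text labelled. Circles are large subunit genes and squares small subunit genes, red and blue mark the 5 members called higher and the 21 called lower, and Rpl29 at 3.47 stands far from the next value of 0.51. With somatic marker factors only Rpl29 remained called higher.

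Rpl29 encodes a small protein of the large subunit. The gene (ENSMUSG00000048758.14, chromosome 9, 106429454 to 106431568 on GRCm38, + strand) had 79, 81 and 167 control reads and 1011, 1232 and 1231 KO-labelled reads, or control CPM of 2.28, 1.91 and 3.79 against KO-labelled CPM of 27.8, 28.8 and 32.2. All 3 KO-labelled libraries lay far above the 3 control libraries, and the mean was 11.1 times that of the control (log2 fold change 3.47, standard error 0.20, edgeR adjusted p = 2.88e-08, 95% interval 3.03 to 3.90). The value ranged from 3.31 to 3.83 when each library was left out in turn, and was 2.89 with somatic marker factors. In the control Rpl29 was among the 3 members with the lowest level per kilobase of exon, at 2.36 ± 0.888 CPM per kilobase in control and 26.3 ± 2.08 in KO-labelled testes (SD, n = 3). Its rank among the members moved from 78 to 58. Rpl29 took 0.0238% of the members' control counts and 0.287% of their KO-labelled counts.

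The count of Rpl29 rests on part of its mRNA. The counts hold no read of 50 bases that fits several places, so every window of 50 bases of the principal mRNA (710 bases) was looked up in the transcripts of all other GENCODE M21 genes. Of its 661 windows, 66.6% also stood in another gene, and of its 434 coding windows 90.3% did. These windows occurred in 84 other genes, 81 of them pseudogenes. No genome sequence was searched, so copies outside annotated transcripts and near matches are not in these shares. To show how close the copies are, the same 120 coding bases, bases 61 to 180 counted from the start codon, follow for Rpl29 and for 3 of its processed pseudogenes from GENCODE M21. Capitals mark the bases of a pseudogene that differ from Rpl29.
Rpl29 (spliced mRNA): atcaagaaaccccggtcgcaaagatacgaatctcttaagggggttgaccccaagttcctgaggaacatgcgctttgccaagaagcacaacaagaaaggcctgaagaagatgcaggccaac
Gm6344 (chr13:55085837-55085956, + strand): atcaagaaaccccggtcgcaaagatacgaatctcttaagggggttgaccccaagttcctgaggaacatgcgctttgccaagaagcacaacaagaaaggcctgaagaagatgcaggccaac
Gm8210 (chr1:43189216-43189335, + strand): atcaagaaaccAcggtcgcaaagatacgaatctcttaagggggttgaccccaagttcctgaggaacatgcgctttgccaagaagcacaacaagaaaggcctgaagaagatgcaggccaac
Gm13213 (chr4:133638504-133638623, - strand): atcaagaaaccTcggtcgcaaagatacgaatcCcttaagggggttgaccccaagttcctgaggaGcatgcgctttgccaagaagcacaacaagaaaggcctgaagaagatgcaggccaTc

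Over the whole coding sequence of Rpl29 (483 bases), Gm6344 and Gm8210 were each identical at 99.4% of the aligned positions, and Gm13213 at 93.4%, with 14 substitutions and 18 gap positions. A read from the stretch shown fits Rpl29 and Gm6344 equally well, whereas Gm13213 differs from Rpl29 at 4 of the 120 bases. The 3 pseudogenes were chosen after their values were seen, and they did not move together. Gm13213 had 1, 3 and 7 control reads and 25, 47 and 30 KO-labelled reads, so the groups did not overlap (log2 fold change 3.23, standard error 0.64, edgeR adjusted p = 0.00138). Gm8210 had 186, 266 and 237 control reads and 88, 159 and 106 KO-labelled reads and was lower (log2 fold change -0.93, standard error 0.21, edgeR adjusted p = 0.00315). Gm6344, which matches Rpl29 over the longest run, 299 bases, had 2, 2 and 0 control reads and 0, 0 and 0 KO-labelled reads and was not tested. Of the genes that share a window with Rpl29, 78 were in the count table, and 8 of them were tested. Only Gm13213 among these was called higher, and Gm8210, Uimc1 and 4931440P22Rik were called lower. Summed over the 75 pseudogenes among them, the libraries held 518, 663 and 649 control reads against 355, 445 and 392 KO-labelled reads. These sums leave out reads that fit several places. Whether reads of a copy are counted as Rpl29, or the reverse, was not tested.

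The region around Rpl29 was also described. Where 16.2% of all genes tested were called higher and 16.5% lower, 14 other genes within 250 kb of Rpl29 were tested. Of these, 5 were called higher and 1 lower, with log2 fold changes from -0.84 to 0.95. The largest calls by p were Ppm1m, a protein phosphatase gene, at 0.87 (edgeR adjusted p = 2.33e-05), and Twf2, an actin-binding protein gene, at 0.64 (edgeR adjusted p = 0.000246). Poc1a, a centriole protein gene, was lower at -0.84 (edgeR adjusted p = 0.00124). None of the 14 changed by as much as Rpl29.

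The other 4 members called higher changed much less, and all 4 were below 0 with somatic marker factors. Rps9, a protein of the small subunit body, had control CPM of 141, 131 and 147 against KO-labelled CPM of 215, 199 and 184 (log2 fold change 0.51, standard error 0.08, edgeR adjusted p = 0.000256, and -0.07 with somatic marker factors). Rpl15, a large subunit protein, had control CPM of 33.4, 30.9 and 38.3 against KO-labelled CPM of 48.2, 52.3 and 43.0 (log2 fold change 0.48, standard error 0.11, edgeR adjusted p = 0.00275, and -0.10 with somatic marker factors). In both genes the 3 KO-labelled libraries all lay above the 3 control libraries. Rpl30, a large subunit protein that also binds selenoprotein mRNAs, had control CPM of 70.3, 78.9 and 76.6 against KO-labelled CPM of 109.6, 101 and 94.0 (log2 fold change 0.43, standard error 0.09, edgeR adjusted p = 0.00129, and -0.15 with somatic marker factors). Rpsa, the small subunit protein also known as the laminin receptor, had control CPM of 69.7, 62.1 and 80.9 against KO-labelled CPM of 98.7, 81.6 and 89.0 (log2 fold change 0.34, standard error 0.10, edgeR adjusted p = 0.0205, and -0.24 with somatic marker factors). The lowest KO-labelled value of Rpsa, 81.6 CPM, was just above the highest control value, 80.9 CPM, and the call was lost when control library 1, control library 2 or KO-labelled library 1 was left out (edgeR adjusted p = 0.0769, 0.0667 and 0.0662). The change of Rps9, Rpl15 and Rpl30 stayed past the test without any 1 library.

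**Figure D2:**
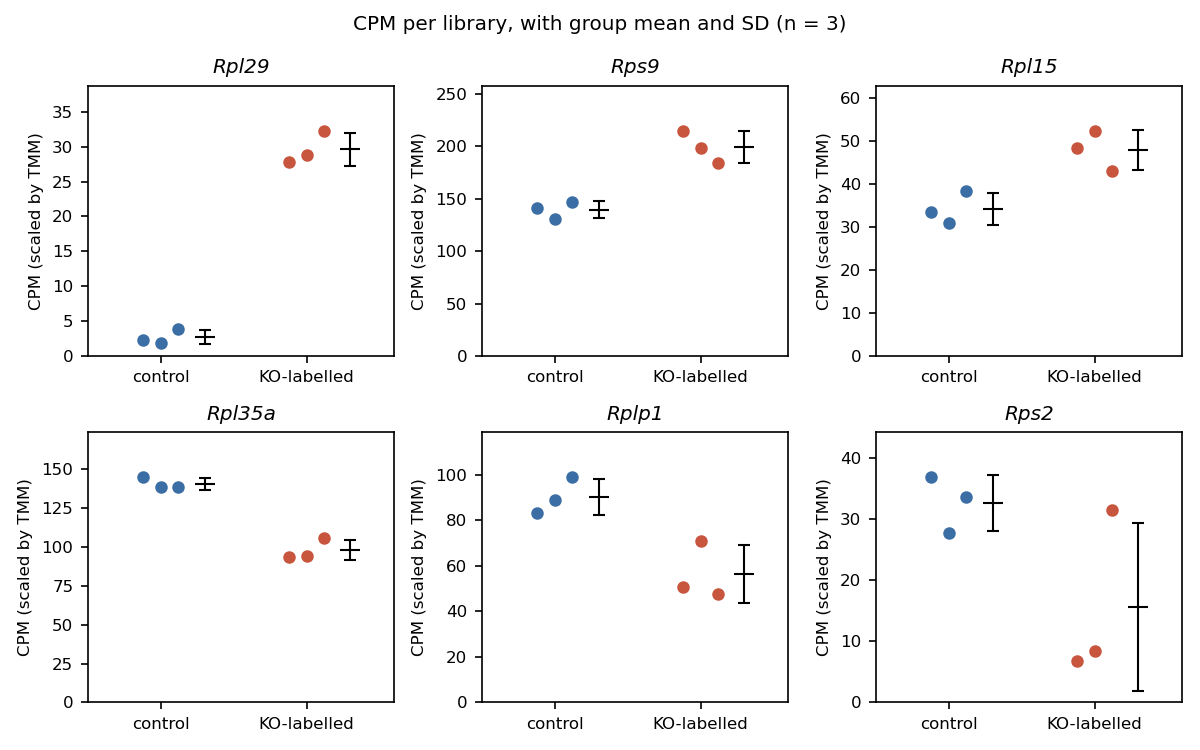
CPM scaled by TMM in each library (points, control in blue and KO-labelled in red) for 6 members, with the group mean and SD (n = 3) beside them in black; each axis starts at 0. Rpl29, Rps9 and Rpl15 are higher in all 3 KO-labelled libraries, Rpl35a and Rplp1 lower in all 3, and Rps2 lower in only 2; with somatic marker factors Rps9 and Rpl15 fall below 0 on the log2 scale.

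Among large subunit genes, 12 of 49 were called lower and 3 higher, and their median log2 fold change was -0.10. Rpl35a, one of the genes mutated in Diamond-Blackfan anaemia, had control CPM of 145, 138 and 138 against KO-labelled CPM of 93.8, 94.5 and 105 (log2 fold change -0.52, standard error 0.08, edgeR adjusted p = 0.00015). The spread within groups was small beside the gap between them. Rpl37a, which holds a zinc finger, had control CPM of 56.3, 53.5 and 62.3 against KO-labelled CPM of 42.1, 44.4 and 41.3 (log2 fold change -0.43, standard error 0.09, edgeR adjusted p = 0.00194). Rpl38, whose loss in mice impairs the translation of Hox mRNAs, had control CPM of 198, 203 and 156 against KO-labelled CPM of 144, 149 and 136 (log2 fold change -0.38, standard error 0.10, edgeR adjusted p = 0.00784), and its call was lost without control library 1 or 2 (edgeR adjusted p = 0.0572 and 0.0699). The other large subunit genes called lower were Rpl26 at -0.67, Rpl13 at -0.35, Rpl41 at -0.35, Rpl22 at -0.33 and Rpl12 at -0.24, besides the stalk genes and the paralogs described next; these 5 were named after their values were seen. Rpl12 was nearest to the threshold on its inner side (edgeR adjusted p = 0.0483).

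The stalk of the large subunit, which recruits the translation factors that use GTP, is built from Rplp0 and from pairs of Rplp1 and Rplp2. Rplp1 had control CPM of 83.2, 88.8 and 98.9 against KO-labelled CPM of 50.5, 71.1 and 47.8 (log2 fold change -0.68, standard error 0.13, edgeR adjusted p = 0.000951). Rplp2 had control CPM of 369, 272 and 343 against KO-labelled CPM of 228, 246 and 276, and its groups overlapped in 1 control library (log2 fold change -0.39, standard error 0.11, edgeR adjusted p = 0.0114); its call was lost without control library 1 (edgeR adjusted p = 0.0786). Rplp0, the base of the stalk, had control CPM of 262, 254 and 279 against KO-labelled CPM of 277, 259 and 233 and was not called (log2 fold change -0.05, standard error 0.08, edgeR adjusted p = 0.7, 95% interval -0.23 to 0.13). The 3 stalk genes thus had values of -0.05, -0.68 and -0.39 for Rplp0, Rplp1 and Rplp2, and the difference between them was not tested.

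Among small subunit genes, 9 of 31 were called lower and 2 higher, with a median log2 fold change of -0.17. Rps15a had control CPM of 121, 133 and 119 against KO-labelled CPM of 92.5, 94.7 and 78.2 (log2 fold change -0.49, standard error 0.09, edgeR adjusted p = 0.000674), and its groups did not overlap. Rps10, a protein of the small subunit beak and another Diamond-Blackfan anaemia gene, had control CPM of 143, 152 and 150.3 against KO-labelled CPM of 106, 128 and 103 (log2 fold change -0.40, standard error 0.09, edgeR adjusted p = 0.00329). Both kept their call under each of the 15 alternatives, as did Rpl35a, Rpl37a, Rplp1, Rpl39l, Rps27l and Rpl29. Small subunit genes called lower also included Rps27l and Rps2, described below, and Rps7, Rps18 and Rps24, at -0.36, -0.32 and -0.32, named after their values were seen.

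Rps2, whose protein lies near the entry channel of the small subunit, was the second largest fall, and it differed among the KO-labelled libraries. It had control CPM of 36.7, 27.7 and 33.5 against KO-labelled CPM of 6.82, 8.43 and 31.5, singled out after these values were seen. Libraries 1 and 2 lay far below the control, and library 3 lay within the control range (log2 fold change -1.07, standard error 0.39, edgeR adjusted p = 0.0474). Without KO-labelled library 3 the log2 fold change was -2.08 (edgeR adjusted p = 5.87e-08), and without any 1 of the other 5 libraries it was -0.71 to -1.14 and not called. DESeq2 did not call it (adjusted p = 0.302). Of its mRNA windows, 79.0% also stood in other genes. Within 250 kb of Rps2, 33 other genes were tested, 9 called lower (16.5% over all genes) and 2 higher (16.2% over all genes). Of these, Meiob, a meiotic recombination gene, had control CPM of 34.9, 42.7 and 34.2 against KO-labelled CPM of 5.50, 6.84 and 6.13 (log2 fold change -2.60, standard error 0.13, edgeR adjusted p = 8.79e-09), and Gfer, a sulfhydryl oxidase gene, had control CPM of 30.0, 30.1 and 30.8 against KO-labelled CPM of 14.1, 15.2 and 20.6 (log2 fold change -0.86, standard error 0.13, edgeR adjusted p = 0.000185). In neither did library 3 return to the control level as in Rps2. Rpl3l, the member with the largest fall, was also among these neighbours called lower. It lies at 24727820 to 24736143 on chromosome 17, beside Rps2 at 24718116 to 24721929. Whether the falls of Rps2 and Rpl3l are linked was not tested.

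The members named as paralogs were set beside their parents. Rpl3l, known as the striated muscle form of Rpl3, had control CPM of 1.50, 1.22 and 1.61 against KO-labelled CPM of 0.798, 0.490 and 0.367, the lowest level per kilobase in the KO-labelled libraries (log2 fold change -1.39, standard error 0.40, edgeR adjusted p = 0.0153), from counts of 52, 52 and 71 against 29, 21 and 14 reads. Rpl3l lies near Rps2 on chromosome 17, as given above. The call of Rpl3l was lost without control library 3 or KO-labelled library 2 (edgeR adjusted p = 0.0606 and 0.0519). Its parent Rpl3, a core protein near the peptidyl transferase centre, had control CPM of 47.5, 49.8 and 55.1 against KO-labelled CPM of 47.6, 55.1 and 45.4 (log2 fold change -0.04, standard error 0.10, edgeR adjusted p = 0.787). Rpl39l, a retrogene of the exit tunnel protein Rpl39, had control CPM of 9.68, 8.02 and 6.50 against KO-labelled CPM of 3.11, 4.90 and 4.66 (log2 fold change -0.93, standard error 0.21, edgeR adjusted p = 0.00333). X-linked Rpl39 had control CPM of 34.0, 33.7 and 29.7 against KO-labelled CPM of 36.4, 35.9 and 29.6 (log2 fold change 0.07, standard error 0.11, edgeR adjusted p = 0.678). Every control library exceeded every KO-labelled library for the paralog, and the groups overlapped for the parent. Rpl10l had control CPM of 7.20, 8.75 and 9.31 against KO-labelled CPM of 4.04, 7.35 and 5.95, with 1 overlapping library, and was not called (log2 fold change -0.54, standard error 0.21, edgeR adjusted p = 0.0565, 95% interval -0.98 to -0.10). Without KO-labelled library 1 its value was -0.33 (edgeR adjusted p = 0.1998). Its X-linked parent Rpl10, which helps to complete the large subunit in the cytoplasm, had control CPM of 52.5, 56.6 and 61.0 against KO-labelled CPM of 60.9, 60.1 and 51.8 (log2 fold change 0.02, standard error 0.09, edgeR adjusted p = 0.882). Rps27l, a p53 target gene, had control CPM of 109, 94.7 and 95.8 against KO-labelled CPM of 84.2, 61.0 and 67.0 (log2 fold change -0.50, standard error 0.11, edgeR adjusted p = 0.00287), and its parent Rps27 had control CPM of 70.6, 72.7 and 93.1 against KO-labelled CPM of 61.7, 70.5 and 60.8 (log2 fold change -0.29, standard error 0.11, edgeR adjusted p = 0.051). Rps27 was past the test without the filter on low counts, with at least 10 counts in every library and with protein-coding genes only (edgeR adjusted p = 0.0390, 0.0324 and 0.0278). It was also past the test without control library 1 or KO-labelled library 2 (edgeR adjusted p = 0.0388 and 0.0489), and fell to -0.15 without control library 3 (edgeR adjusted p = 0.270).

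Within a library the ratio of paralog to parent does not depend on the scaling. The mean log2 ratio of Rpl3l to Rpl3 was -5.14 ± 0.185 in control and -6.56 ± 0.572 in KO-labelled testes (SD, n = 3). That of Rpl39l to Rpl39 was -2.02 ± 0.193 and -3.03 ± 0.462, and that of Rpl10l to Rpl10 was -2.76 ± 0.0953 and -3.36 ± 0.486. In these 3 pairs all KO-labelled ratios lay below all control ratios (exact two-sided permutation p = 0.1, the smallest that 3 against 3 libraries can give, and 0.133 adjusted over 4 pairs). For Rps27l and Rps27 the ratios were 0.35 ± 0.295 and 0.13 ± 0.328 and overlapped (exact permutation p = 0.5). Coding identity between parent and paralog was 73.1% for Rpl3 and Rpl3l, 84.8% for Rpl10 and Rpl10l, 85.3% for Rpl39 and Rpl39l and 76.1% for Rps27 and Rps27l. Rpl3l and Rpl39l share none of their 50-base windows with another annotated gene, and Rpl10l shares 7.60%, whereas Rpl10 shares 92.1% and Rpl3 85.6%. Rpl39 shares 16.5% of all windows but 84.1% of its coding windows, and Rps27l 22.4% and 49.0%. Rps27 shares 98.6% of all windows and every coding window, so its count rests on the few remaining windows. Spermatocyte markers, lower in the KO-labelled libraries as given above, moved with the paralogs, and their part in it was not tested.

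**Figure D3:**
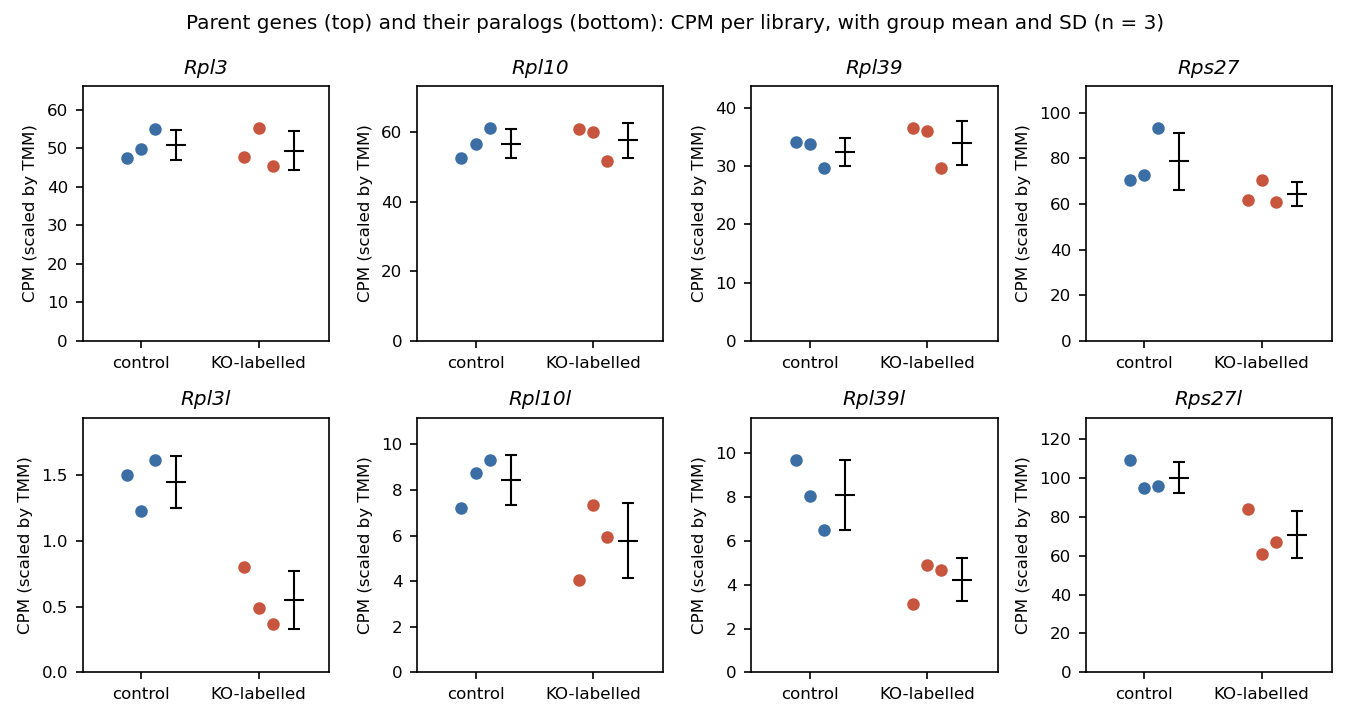
CPM scaled by TMM in each library (points) with group mean and SD (n = 3) for 4 parent genes (top) and their paralogs (bottom), each axis starting at 0. The parents overlap between groups except Rps27, and Rpl3l, Rpl39l and Rps27l are lower in every KO-labelled library while Rpl10l overlaps in 1.

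The 4 X-linked members, Rpl10, Rpl39, Rps4x and Rpl36a, all had values above 0 with TMM factors, whereas Rpl10, Rpl39 and Rps4x were at -0.56, -0.52 and -0.28 with somatic marker factors. With TMM, 0 of the 4 were called by edgeR, DESeq2 or limma-voom, and 1 had an unadjusted p under 0.05 in each. Rps4x had control CPM of 32.6, 37.8 and 38.7 against KO-labelled CPM of 52.1, 47.9 and 35.0 (log2 fold change 0.31, standard error 0.13, edgeR adjusted p = 0.0838). It was called without the filter on low counts (adjusted p = 0.0149) and without KO-labelled library 3 (adjusted p = 0.00319, both edgeR). Rps4l, annotated as a transcribed processed pseudogene and so not a member, had control CPM of 67.2, 62.3 and 66.2 against KO-labelled CPM of 68.2, 54.6 and 61.1 (log2 fold change -0.09, standard error 0.09, edgeR adjusted p = 0.5).

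A further 5 members, taken by name for a known role, were not called with TMM factors. Rpl5 and Rpl11, which with 5S rRNA bind the p53 regulator MDM2 when ribosome assembly fails, had log2 fold changes of -0.02 (edgeR adjusted p = 0.859) and 0.12 (edgeR adjusted p = 0.378), with 95% intervals of -0.21 to 0.16 and -0.09 to 0.33. Rps6, the substrate of S6 kinase, was at -0.03 (edgeR adjusted p = 0.843), with an interval of -0.22 to 0.17. Rps19, the gene most often mutated in Diamond-Blackfan anaemia, was at -0.09 (edgeR adjusted p = 0.578), with an interval of -0.33 to 0.15, and Rps27a, made as a fusion with ubiquitin, was at -0.03 (edgeR adjusted p = 0.9), with an interval of -0.32 to 0.26. A change of more than 0.33 in either direction lay outside all 5 intervals with TMM factors. With somatic marker factors all 5 were called lower, at -0.46 to -0.67, beside a median of -0.60 for all genes.

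The counted levels of the members spanned a wide range. Per kilobase of exon the span in the control was 842-fold, with a median of 54.7 CPM per kilobase. Rpl4, one of the largest ribosomal proteins and the host of several small nucleolar RNAs, was highest, at 573 ± 27.3 CPM per kilobase in control and 585 ± 40.6 in KO-labelled testes (SD, n = 3). It had control CPM of 1154, 1203 and 1094 against KO-labelled CPM of 1268, 1133 and 1121, and it was not called (log2 fold change 0.03, standard error 0.08, edgeR adjusted p = 0.819, 95% interval -0.15 to 0.21). Rpl36 followed at 541 ± 16.5 CPM per kilobase in control and 484 ± 67.6 in KO-labelled testes (SD, n = 3). The spreads of these first 2 met in the control, and their difference within libraries was not tested. Rpl38 came next at 343 ± 47.4 CPM per kilobase in control and 264 ± 12.2 in KO-labelled testes (SD, n = 3). Rpl24, a protein at the subunit interface, was lowest in the control, at 0.680 ± 0.233 CPM per kilobase in control and 0.395 ± 0.121 in KO-labelled testes (SD, n = 3), with only 20 to 33 control and 10 to 20 KO-labelled reads a library (log2 fold change -0.77, standard error 0.51, edgeR adjusted p = 0.271, 95% interval -1.86 to 0.32). Of its mRNA windows, 69.4% also lie in Gm28037, an annotated gene that overlaps it on the same strand and has 0 reads in all 6 libraries; reads that overlap several genes were not counted. In Rpl13a, ranked 77, the share in the overlapping gene Gm45713 was 57.4%, and that gene also has 0 reads. The order of the members was nearly the same in both groups (Spearman's rho 0.979 across the 80 genes, a description, since genes are not independent replicates). The exon length used here is that of all annotated isoforms together and so exceeds the mRNA length in many members.

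**Figure D4:**
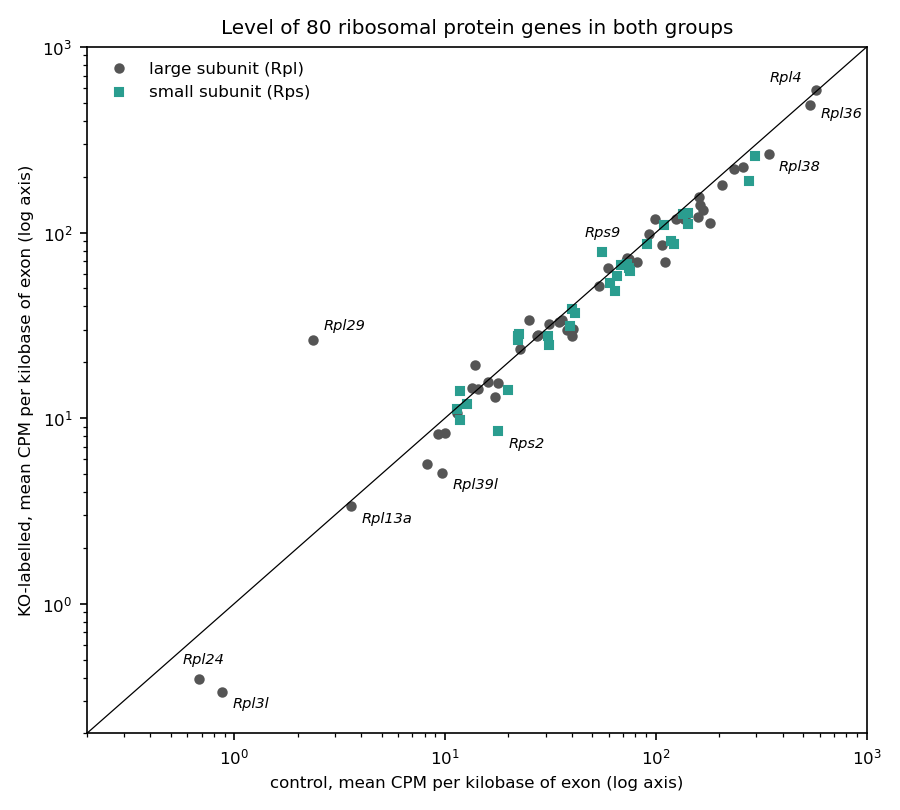
Mean level of each of the 80 members in the control (horizontal) and KO-labelled (vertical) libraries, in CPM per kilobase of exon on log axes, with the line of equal levels. Rpl29 rises from rank 78 to rank 58, Rps2 lies below the line, and Rpl24, Rpl3l and Rpl13a stand at the low end.

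How much of each member can be counted at all differs widely. Over the 80 members, the median share of 50-base mRNA windows found in another gene was 51.9%, and of coding windows 90.8%. The share of all windows depends on the isoform taken. For Rps15a this was an mRNA of 5130 bases, with 6.14% of all windows but 84.3% of coding windows shared. The rho values below use the share of all windows. In 27 members every coding window was found in another gene, so that reads of 50 bases from within their coding sequence match more than 1 place and were left uncounted. In 14 members under 50% of the coding windows were shared, and Rpl3l and Rpl39l shared no window. Calls were found in each of these classes: 4 of the 27 were called lower and 1 higher, with a median log2 fold change of -0.09, and 5 of the 14 were called lower and 1 higher, with a median of -0.20. In the 39 members between them 12 were called lower and 3 higher, with a median of -0.16. Across the 80 genes, Spearman's rho between log2 fold change and the share of shared windows was 0.16, and between control level per kilobase and that share -0.11, given as descriptions. The fold changes of the 27 members with no coding window of their own, among them Rpl15, Rpl38 and Rps27, are uncertain to that extent. Pseudogenes that share a window with any member numbered 1042 in the table, 100 of them with 0 reads, and held 39439, 47190 and 46003 control reads against 36829, 41032 and 34316 KO-labelled reads. Of these, 220 were tested, and 16 were called lower and 3 higher, with a median of -0.18. Both shares were below the 16.5% and 16.2% of all genes tested.

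**Figure D5:**
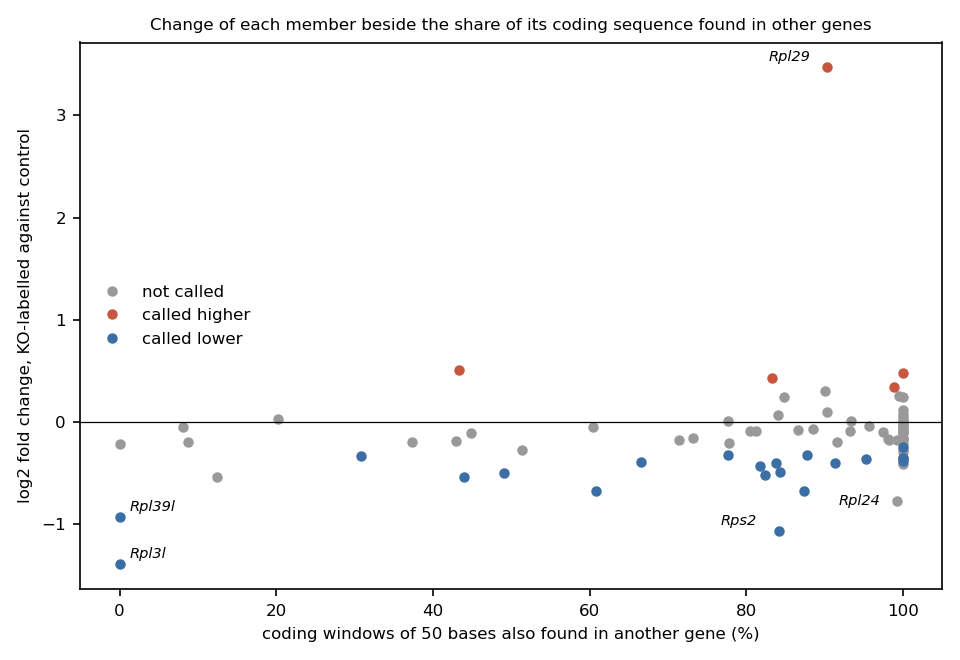
Log2 fold change of each member (vertical) against the share of its coding windows of 50 bases that also stand in another annotated gene (horizontal, in %), with grey for members not called, red for called higher and blue for called lower. Called members occur from 0% to 100%, and Rpl29 lies at 90.3%; with somatic marker factors only Rpl29 of the red points was still called higher.

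The TOP tract was read at the annotated start sites. The RefSeq promoter table (GRCm38.p6) held 60 of the 80 members by symbol, and a tract was defined as a C followed by at least 4 bases that are each C or T, on the strand of the gene. Such a tract began at the listed start base itself in 13 of these 60 members (21.7%), where 3.01% of all 27025 genes in the table have one, and within 10 bases of it in 38 (63.3%), where 34.4% of all genes do. Of the members with an entry, 14 of 18 called lower, 2 of 3 called higher and 22 of 39 not called had a tract within 10 bases. A match describes the letters only. The windows below run from 10 bases before to 20 bases from the start of members with low p, of Rps6 and of the parents and paralogs above, since these genes carry the contrasts described. Capitals mark the tract, and of several listed starts the first by coordinate with a tract was taken.
Rpl35a (chr16:33056472-33056501, + strand, called lower): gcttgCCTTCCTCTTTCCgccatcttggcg
Rps15a (chr7:118116128-118116157, - strand, called lower): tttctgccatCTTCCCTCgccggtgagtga
Rps10 (chr17:27635225-27635254, - strand, called lower): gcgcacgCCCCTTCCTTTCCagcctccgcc
Rpl15 (chr14:18270967-18270996, - strand, called higher): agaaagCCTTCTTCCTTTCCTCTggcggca
Rps6 (chr4:86857348-86857377, - strand, not called): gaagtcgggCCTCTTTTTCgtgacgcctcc
Rps27 (chr3:90213629-90213658, - strand, not called): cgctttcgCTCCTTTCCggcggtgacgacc
Rpl39 (chrX:37085203-37085232, - strand, not called): gctccgcctctagcgaCTTCTTCTaatcgc
Rpl10 (chrX:74270806-74270835, + strand, not called): tacagtggaagataggccgcctatataagg
Rpl3l (chr17:24727816-24727845, + strand, called lower): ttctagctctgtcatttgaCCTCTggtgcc
Rpl10l (chr12:66284382-66284411, - strand, not called): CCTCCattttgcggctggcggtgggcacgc
Rpl39l (chr16:10170218-10170247, + strand, called lower): aggCCTTTCCggatttccggtggtcgccat
Rps27l (chr9:66946076-66946105, + strand, called lower): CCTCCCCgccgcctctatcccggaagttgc

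In Rpl35a, Rps10 and Rpl15 the tract was 13, 13 and 17 bases long, in Rps15a 8, in Rps6 10 and in Rps27 9, and it reached across or began at the listed start. In the 4 paralogs it was 5 to 7 bases long, and 0 of the 4 had a tract at the start base itself. Tracts thus stood beside members that rose, fell or were not called.

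Other genes of the translation machinery were read in the same fit, where 16.2% of all genes were called higher and 16.5% lower. With somatic marker factors 1.18% of all genes were called higher and 57.8% lower, and their median was -0.60. Of 20 other mRNAs known for a TOP tract, 4 were called higher and 3 lower, with a median of 0.04, and with somatic marker factors 18 were called lower and 0 higher (0 higher also at an unadjusted p under 0.05). Vim, an intermediate filament gene of somatic cells, was at 0.41 (edgeR adjusted p = 0.00284) and Eif4b, a helicase cofactor, at 0.27 (edgeR adjusted p = 0.0151), while Nap1l1, a histone chaperone, was at -0.33 (edgeR adjusted p = 0.00668) and Eif3e, an initiation factor subunit, at -0.31 (edgeR adjusted p = 0.00891). Of 18 regulators of TOP mRNAs, 2 were higher and 2 lower, with a median of -0.04, and all 18 were lower with somatic marker factors. Larp1, which binds the TOP tract, was at 0.25 (edgeR adjusted p = 0.0353) and Eif4ebp2, an inhibitor of cap binding, at 0.28 (edgeR adjusted p = 0.0148), while Larp1b was at -0.71 (edgeR adjusted p = 0.0001) and Tial1 at -0.29 (edgeR adjusted p = 0.019). Of 8 chaperones and carriers of ribosomal proteins, 3 were lower and 0 higher by edgeR, DESeq2 and limma-voom, with a median of -0.29 and 0 higher at an unadjusted p under 0.05. With somatic marker factors all 8 were lower. Among them were Ltv1, a small subunit assembly factor, at -0.43 (edgeR adjusted p = 0.00101), and Heatr3, an importer of Rpl5, at -0.32 (edgeR adjusted p = 0.0247). Of the 9 ribosomal genes outside the symbol rule, among them Rps3a1, Fau and Rack1, 8 were tested and 0 were called, with a median of -0.09, by edgeR, DESeq2 or limma-voom, and 0 had an unadjusted p under 0.05. With somatic marker factors 6 were called lower.

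The mitochondrial ribosome is built from other proteins. Of its 78 protein genes 77 were tested, 15 were called lower and 3 higher, and the median log2 fold change was -0.08. With somatic marker factors 75 of the 77 were called lower, beside 57.8% of all genes. Mrpl35 and Mrps16 were lower, at -0.65 (edgeR adjusted p = 0.000572) and -0.63 (edgeR adjusted p = 0.00238), and Mrpl36 and Mrps15 were higher, at 0.62 (edgeR adjusted p = 0.00127) and 0.25 (edgeR adjusted p = 0.0306). Of 294 annotated ribosomal protein pseudogenes named as such, 77 were tested, 6 were called lower and 1 higher, with a median of -0.20. Rps15a-ps6 and Rpl22-ps1 were lower, at -0.88 (edgeR adjusted p = 0.0144) and -0.53 (edgeR adjusted p = 0.0162), and Rps19-ps3 was higher, at 2.35 (edgeR adjusted p = 0.0334). The parents Rps15a and Rpl22 were also called lower, at -0.49 and -0.33, and Rps19 was at -0.09 and not called. No difference between these lists and the members was tested.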

How the data were processed

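RNA of whole testes was read in 3 control and 3 KO-labelled libraries, primed with random and poly(T) primers and sequenced as single-end reads of 50 bases. The authors trimmed the reads (cutadapt), mapped them to GRCm38.p5 (HISAT2) and counted them per GENCODE M18 gene on the sense strand with featureCounts 1.6.4, leaving out reads with several mapping places or several genes. The deposited values are these raw counts, and 0 library columns went unused. Gene names and biotypes are those of GENCODE M21, and 67 of the 54232 genes have no name there.

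The counts were tested over all genes that passed filterByExpr, with edgeR 4.0.16 in R 4.3.3 (TMM factors, glmQLFit and glmQLFTest). A call is a Benjamini-Hochberg adjusted p under 0.05, and standard errors were taken as the size of the log2 fold change over the square root of F. The test was checked on simulated counts. Libraries held 33325483 to 44956193 counts, which limits the precision only for the few members with low counts. Window look-up and alignments used Python 3.11.15 and Biopython 1.88, summaries and exact permutation tests pandas 2.3.3 and scipy 1.17.1, and plots matplotlib 3.10.9.

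The members and the gene lists were chosen with earlier results of these data known. The rule for names took Rpl29, the paralogs with their parents, the stalk genes, Rpsa, Rps6, Rps27a, Rpl5, Rpl11, Rps19, Rpl38 and Rpl24, in each direction the 8 members of smallest adjusted p, and the 3 highest and 3 lowest control levels per kilobase. In every other list it took the 2 genes of smallest adjusted p in each direction. Genes named beyond the rule were chosen after their values were seen, also Uimc1, 4931440P22Rik, Gm28037, Gm45713 and Rpl13a. The alternatives were DESeq2 1.42.0, limma-voom (limma 3.58.1), RLE, upper-quartile and somatic marker factors (from 39 genes), no filter on low counts, a minimum of 10 counts in all libraries, protein-coding genes alone, a block for the replicate number, and leaving out 1 library at a time. Those for Rps2 and Gm13213 were added after seeing the data. Some genes that the rule names are not reported here.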

Additional observations from a re-analysis of the deposited data

How the results depend on the processing

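The number of members called lower was 21 and stayed within 1.5 times of it except with somatic marker factors, where it was 73. It ranged from 16 to 24 with 1 library left out. The number called higher was 5, against 1 with somatic marker factors and 8 without a filter on low counts, and 4 to 7 with 1 library left out. The median of the members was -0.74 with somatic marker factors and ranged from -0.17 to -0.075 with 1 library left out. Somatic marker factors rest on the summed counts of 39 marker genes, and they moved the median of all genes tested from -0.02 to -0.60. Sertoli cell markers had the largest sum of the lists used, and 3 of 6 peritubular myoid markers were called lower with TMM factors. For the other changes the cause was not tested. Rpl29 was called higher in each alternative run. Dis3l2 turned from 0.22 to -0.35 with somatic marker factors. With the same factors the sign also turned for Rpl10 (-0.56), Rpl11 (-0.46), Rpl15 (-0.10), Rpl30 (-0.15), Rpl39 (-0.52), Rpl4 (-0.55), Rps4x (-0.28), Rps9 (-0.068) and Rpsa (-0.24). With protein-coding genes only, Rpl10 and Rpl4 were at -0.013 and -0.0059, and without a filter Rpl5 was at 0.0014. With 1 library left out, values lay on both sides of 0 for Rpl10 (-0.030 to 0.10), Rpl3 (-0.12 to 0.026), Rpl4 (-0.020 to 0.10), Rpl5 (-0.10 to 0.038), Rplp0 (-0.10 to 0.026), Rps19 (-0.15 to 0.070), Rps27a (-0.16 to 0.090) and Rps6 (-0.10 to 0.062), and these 8 were not called with all libraries. Of 32 named members, 10 kept direction and call under all 15 alternatives.

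Deviations of libraries with the same replicate number were not correlated (-0.00140, -0.0126 and 0.0139 for the 3 numbers), so no pairing by number was seen. With 3 libraries a group this cannot exclude pairing, and the labels give no litters. With the replicate number as a block, 23 members were called lower and 5 higher, the median was -0.16, and among the named members the call changed for Rpl10l alone (-0.57, edgeR adjusted p = 0.0241). Rpl10l was also past the test with limma-voom (adjusted p = 0.0446), and with 1 library left out its value ranged from -0.75 to -0.33. Rps2 missed the threshold with upper-quartile factors (edgeR adjusted p = 0.0576). Gm13213 was not tested where at least 10 counts in every library or a protein-coding biotype was required. Depth limits Rpl24, with 10 to 33 reads a library, and Rpl3l, with 14 to 71.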

Other observations

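Rps3, a small subunit protein, and Rpl8, a large subunit protein, share little of their sequence with other annotated genes. With 8.05% and 8.69% of their coding windows shared, their log2 fold changes were -0.05 (edgeR adjusted p = 0.685) and -0.20 (edgeR adjusted p = 0.155). Both were chosen after their values were seen.

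Rpl10a, a large subunit protein, was the member whose KO-labelled libraries all exceeded the control libraries without a call. It had control CPM of 238, 225 and 235 against KO-labelled CPM of 340.4, 240.2 and 253 (log2 fold change 0.26, standard error 0.11, edgeR adjusted p = 0.0892), and KO-labelled library 1 stood apart from the other two. It too was chosen after its values were seen.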
